A study of Homo sapiens with 2 samples.

Results

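The genes described here are 38 regulators of chromatin and of chromosome cohesion that are recurrently mutated or otherwise implicated in myeloid leukemia, out of 20037 protein-coding genes on chromosomes 1 to 22, X and Y. They were taken by name, and the list was chosen with earlier results of these data known. Peaks were assigned to a gene when their midpoint lay inside its span or within 10 kb of it, and again within 50 kb. The peaks come from chromatin immunoprecipitation and sequencing in NB4 cells, a human line derived from acute promyelocytic leukemia and driven by a PML-RARA fusion, grown without any stated drug treatment. There was 1 library with antibody ab21061 and 1 with antibody sc8558, both labelled as directed against GFI1. The labels disagree in places, since the immunoprecipitation protocol names antibodies against PML/RARα and 1 sample title, that of sc8558, has GFI2. The antibody labels were followed. Peak lists hold no expression values, so the identity of the cells was not checked against marker genes.

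GFI1 is a zinc-finger protein that represses genes during blood cell formation. It recognises DNA with an AATC core and recruits histone-modifying enzymes. The genes examined write, remove or read chemical marks on DNA and histones, or hold sister chromatids and chromatin loops together. DNA methyltransferases add methyl groups to cytosine, and TET enzymes oxidise them in a reaction that needs the product of isocitrate dehydrogenase. Polycomb complexes place repressive marks on histones, KMT2 enzymes place activating ones, and cohesin is a ring built from SMC1A, SMC3, RAD21 and a STAG subunit. Somatic mutations of TET2, DNMT3A, IDH1, IDH2, ASXL1, EZH2 and STAG2 are well known in myeloid disease.

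The ab21061 list held 7687 peaks and the sc8558 list 7562, with scores from 50.01 to 3100 in both. A region is called shared when peaks of both lists overlap by at least 1 bp. The 2 lists gave 4853 shared regions. The score is what the peak caller of the authors gave each peak, on the scale of each library, so the levels of the libraries are not compared. Depth is unknown, each antibody had a single library, and no p-value was computed. Intervals are exact Clopper-Pearson 95% intervals and cover counting error only, not the choice of the genes.

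Within 10 kb, a shared region was present for 11 of the 38 genes (28.9%, interval 15.4 to 45.9), against 12.8% of all protein-coding genes. They were TET1, TET2, TET3, EED, KMT2C, KDM6A, PRMT5, CREBBP, NCOR1, SIN3A and SMC3, each with a single shared region. A further 5 had one within 50 kb only, namely DNMT3B, EZH1, KMT2A, CHD4 and SMC1A, for 16 in all (42.1%, 26.3 to 59.2), against 24.3% of all protein-coding genes. The remaining 22 comprised 7 with peaks that were not shared and 15 with no listed peak within 50 kb (39.5%), against 61.7% of all protein-coding genes. Taken alone, ab21061 had a peak within 10 kb of 14 of the genes, against 17.4% of all protein-coding genes, and sc8558 of 16, against 17.8%. Within 50 kb they had 20 and 21, against 31.7% and 32.4%. The shares of all protein-coding genes given so far are not adjusted for gene length, and the 38 genes are longer than most.

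By distance from a RefSeq start, 5 of 35 genes had both peak midpoints of a shared region within 10 kb (14.3%, 4.81 to 30.3), against 6.91% of all genes with a listed start. Within 1 kb 0 of 35 had (interval up to 10.0%), against 2.28%, so the count is near the background. Inside the gene span 9 of 38 had one (23.7%, 11.4 to 40.2), against 8.28% of all protein-coding genes, also without adjustment for gene length.

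**Figure D1:**
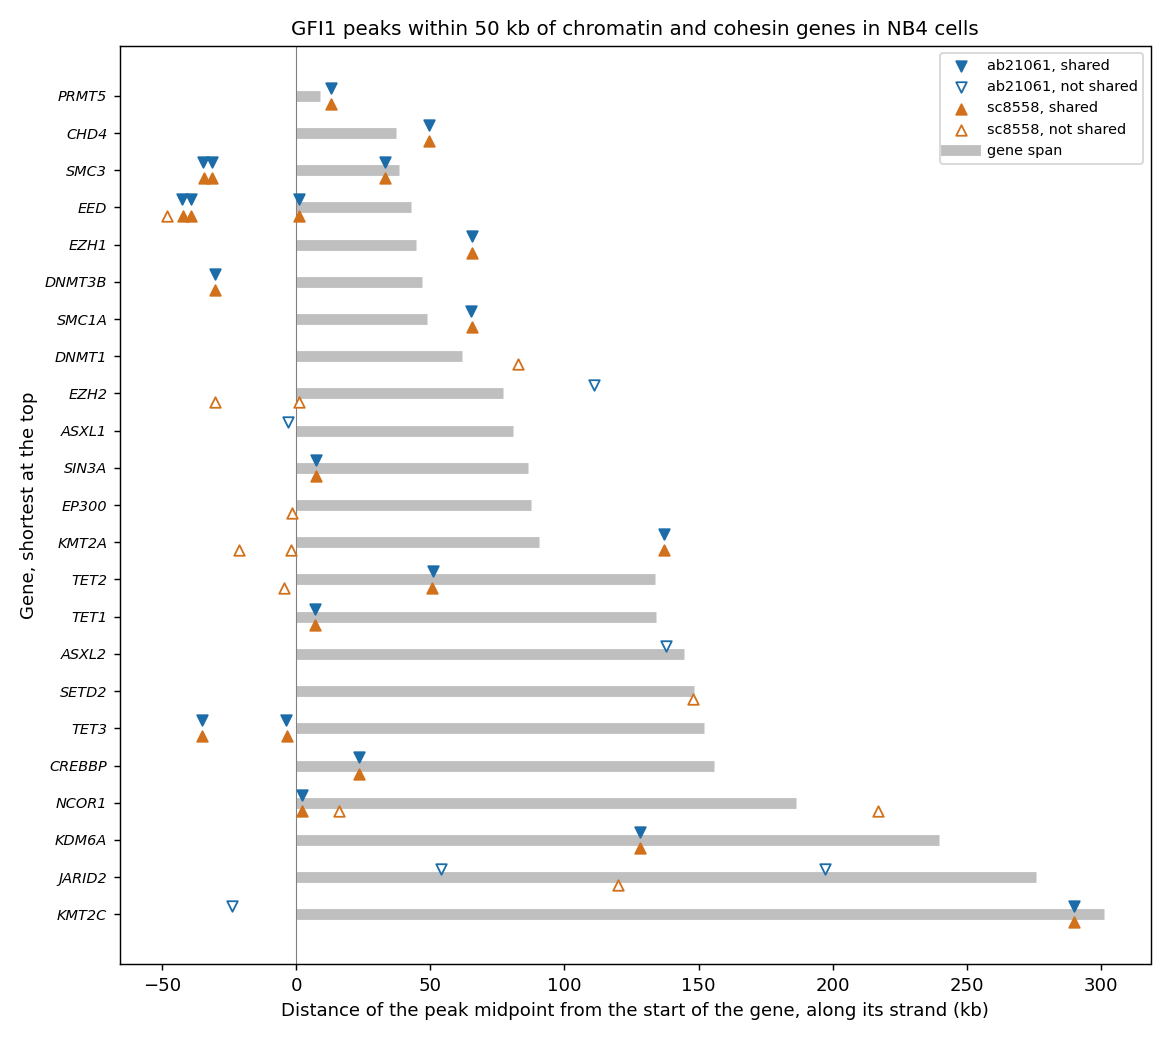
Midpoints of ab21061 peaks (triangles pointing down) and sc8558 peaks (triangles pointing up) by distance in kb from the start of each gene along its strand, for the 23 genes with a peak within 50 kb. Grey bars are gene spans. Filled symbols, which mark peaks overlapped by the other list, come in pairs at nearly the same distance, and 9 of the 21 pairs sit inside the gene.

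Sequence around gene starts is shown for EZH2 and EED. In EZH2 an sc8558 peak covers part of a promoter, the sole case for either antibody among the 64 RefSeq promoters tabulated for 35 of the 38 genes. EED has the shared region closest to a start. Each sequence runs 5′ to 3′ on the strand of the gene from 250 bases before the start to 50 after it (RefSeq, GRCh38.p14). In the upstream EZH2 start, chr7:148884242-148884541 on the minus strand, capitals mark GTGATT, the reverse complement of AATCAC, at 97 bases before the start. No peak of either antibody covers this upstream sequence, and the sc8558 peak lies 639 bases from it. In the downstream EZH2 start, chr7:148883436-148883735 on the minus strand, capitals mark the 168 bases under the sc8558 peak. In the EED start, chr11:86244503-86244802 on the plus strand, capitals mark the bases from the start on, the side that faces the shared region.
EZH2 upstream start: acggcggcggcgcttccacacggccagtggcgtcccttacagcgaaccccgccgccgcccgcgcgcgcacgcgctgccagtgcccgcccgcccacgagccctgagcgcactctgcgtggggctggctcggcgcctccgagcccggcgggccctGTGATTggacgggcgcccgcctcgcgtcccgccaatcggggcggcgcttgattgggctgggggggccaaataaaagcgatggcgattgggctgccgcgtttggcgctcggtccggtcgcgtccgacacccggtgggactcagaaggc
EZH2 downstream start: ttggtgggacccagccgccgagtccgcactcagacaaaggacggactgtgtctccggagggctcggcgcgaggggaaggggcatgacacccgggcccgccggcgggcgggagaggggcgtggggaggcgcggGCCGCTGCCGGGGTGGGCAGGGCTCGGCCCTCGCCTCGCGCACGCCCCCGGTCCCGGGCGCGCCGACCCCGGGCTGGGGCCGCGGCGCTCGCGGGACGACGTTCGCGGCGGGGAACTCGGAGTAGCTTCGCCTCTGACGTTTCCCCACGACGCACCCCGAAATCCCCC
EED start: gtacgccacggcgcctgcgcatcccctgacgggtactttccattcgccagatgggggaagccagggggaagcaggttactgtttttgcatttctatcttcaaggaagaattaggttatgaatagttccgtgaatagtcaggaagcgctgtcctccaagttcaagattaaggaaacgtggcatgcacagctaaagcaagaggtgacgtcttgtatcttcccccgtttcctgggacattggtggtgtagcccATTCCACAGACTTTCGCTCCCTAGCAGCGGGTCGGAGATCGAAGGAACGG

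The letters AATCAC, which contain the core of the GFI1 site, and a variant of them, AATCTC, were searched on both strands. Either was present in 19.2% of 35116 RefSeq promoters of this length and in 7 of the 64 promoters of these genes (10.9%). By gene, 7 of 35 had them (20.0%), against 20.9% of 15843 protein-coding genes. They were CREBBP, DNMT3B, EZH2, IDH1, NSD1, PRMT5 and TET1. Promoters of these genes had a median GC content of 68.2%, against 58.7% over all promoters. Other letters searched were TGTGGT, as in RUNX sites and present in 13.1% of all promoters, GGAAGT, as in ETS sites and present in 22.8%, and TGACTCA, as in AP-1 sites and present in 4.95%. The last was searched together with TGAGTCA, its reverse complement. None of these was in the 3 sequences shown. Of the 3, only the upstream EZH2 sequence, which is not under a peak, held AATCAC or AATCTC. A match or its absence describes only the letters in the window.

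The TET genes, which encode the dioxygenases that start DNA demethylation, all had a shared region within 10 kb. They fall in the class of 100 to 200 kb in length, in which 26.4% of all protein-coding genes had one. In TET2, on chromosome 4 from 105145875 to 105279803, it lay inside the gene from 105196137 to 105197135, scoring 194.7 with ab21061 and 209.54 with sc8558. Its midpoint was 49.8 kb past the nearest RefSeq start of TET2, and the antisense transcript TET2-AS1 covers the same position. An sc8558 peak without overlap, scoring 87.29, lay 4.65 kb before TET2, and the nearest ab21061 peak was 54.6 kb from it.

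In TET3 the region lay before the gene, on chromosome 2 from 73979304 to 73980466, with scores of 219.14 for ab21061 and 191.08 for sc8558. It was 3.75 kb outside the span and within the long non-coding gene DGUOK-AS1. A weaker shared region lay 35.0 kb before TET3, in the neighbouring gene DGUOK, with 56.45 for ab21061 and 89.52 for sc8558. The region of TET1, on chromosome 10 from 68566785 to 68567638, was inside the gene and 6.87 kb past its start. Its scores were 60.21 with ab21061 and 65.69 with sc8558. The TET2 and TET3 regions ranked 815 and 839 by their lower score among the 4853 shared regions, and that of TET1 ranked 3889.

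The DNA methyltransferase genes had no peak of either antibody within 10 kb. In that window 17.4% of all protein-coding genes had an ab21061 peak and 17.8% an sc8558 peak. DNMT3B, which encodes a de novo methyltransferase, had a shared region 30.2 kb before its span, on chromosome 20 from 32731660 to 32732717, inside the neighbouring gene COMMD7. Scores there were 293.72 with ab21061 and 231.77 with sc8558. For DNMT1, the maintenance methyltransferase gene, an sc8558 peak with a score of 65.01 lay 21.2 kb past the end, over P2RY11, and no ab21061 peak lay closer than 152 kb. DNMT3A, the other de novo enzyme gene and the one often mutated in leukemia, had none within 50 kb. Its nearest shared region was 56.9 kb away. IDH1 and IDH2, whose mutant enzymes make a metabolite that inhibits TET proteins, had their nearest shared regions at 211 and 286 kb.

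Among 10 Polycomb genes, 1 had a shared region within 10 kb, EED, a share near the 12.8% of all protein-coding genes. EED encodes the subunit of Polycomb repressive complex 2 that binds the methyl mark the complex makes. The region, on chromosome 11 from 86244836 to 86246688, had scores of 177.93 for ab21061 and 256.98 for sc8558. Its midpoint was 1.01 kb past the EED start, and its ab21061 peak began 34 bases beyond the last base of the EED sequence shown above. The sc8558 peak began 260 bases beyond it.

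Before EED lay the highest-scoring shared region within 50 kb of any of these genes. It spanned 3078 bp, from 86200855 to 86203932 on chromosome 11, with 1219.31 for ab21061 and 1288.84 for sc8558, and ranked 20 of 4853 by the lower score. It was 42.4 kb before EED and outside any annotated gene, and the nearest other protein-coding gene, HIKESHI, was 99.8 kb away on the far side of EED. A second region at 39.1 kb scored 84.05 with ab21061 and 51.63 with sc8558, and an sc8558 peak without overlap at 48.3 kb scored 99.16.

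EZH1 and EZH2 encode the alternative catalytic subunits of the same complex. EZH1 had a shared region 20.7 kb past its end, over CCR10 on chromosome 17 from 42679054 to 42680172, with 128.08 for ab21061 and 83.36 for sc8558. EZH2 had unshared peaks. With sc8558, a peak on chromosome 7 from 148882793 to 148883603 scored 66.4, with its midpoint 0.287 kb past the downstream EZH2 start, and the nearest ab21061 peak was 109 kb away. Another sc8558 peak 30.3 kb before EZH2 scored 97.23. The ab21061 peak of 61.91 lay 33.9 kb past the end, in CUL1.

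JARID2, an accessory subunit of the complex and among the longest of the 38 genes at 276 kb, held 2 ab21061 peaks and 1 sc8558 peak, all inside the gene and none overlapping. The ab21061 peaks scored 101.39 and 59.12 and the sc8558 peak 70.95, at least 64.8 kb from either of them. ASXL1 and ASXL2 encode scaffolds of the complex that removes ubiquitin from histone H2A. ASXL1 had an ab21061 peak 3.26 kb before its start, with a score of 75.09, and ASXL2 had one of 65.82 inside the gene, 53.7 kb past the nearest start. The nearest sc8558 peaks to these were 68.5 and 108 kb away.

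The other 4 Polycomb genes had no peak within 50 kb, and 61.7% of all protein-coding genes had none either. Of the 4, SUZ12 encodes a core subunit and BMI1 a component of the complex that ubiquitinates histone H2A. BCOR and BCORL1 encode corepressors of a variant of that complex. Single ab21061 peaks without a shared counterpart lay 77.1 kb from SUZ12 and 91.0 kb from BMI1. Their nearest shared regions were 615 and 507 kb away, and those of BCOR and BCORL1 were 1704 and 210 kb away.

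Of 10 genes for histone methyltransferases and demethylases, 3 had a shared region within 10 kb, beside 12.8% of all protein-coding genes and 30.9% of those over 200 kb, as KMT2C and KDM6A are. KMT2C encodes a methyltransferase that marks enhancers. Its region, on chromosome 7 from 152145546 to 152146655, had scores of 147.15 for ab21061 and 145.54 for sc8558 and lay near the far end of the gene, 290 kb past the start (96.3% of the span). An ab21061 peak without overlap, 24.0 kb before KMT2C, scored 53.96. KDM6A encodes a demethylase that removes the Polycomb mark. The region inside it, on chromosome X from 45000811 to 45001624, had scores of 61.8 for ab21061 and 59.33 for sc8558, 128 kb past the start. PRMT5 encodes an arginine methyltransferase. At 8.85 kb it is the shortest of the 38 genes, and its shared region, with 109.26 for ab21061 and 83.36 for sc8558, lay 4.25 kb past its end on chromosome 14 from 22915859 to 22916709, within RBM23.

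Other genes of this kind had weaker or unshared peaks. KMT2A, also called MLL and a frequent fusion partner in acute leukemia, had an sc8558 peak of 53.96 at 1.93 kb before its start. A shared region 46.7 kb past its end, over IFT46 and ARCN1 on chromosome 11 from 118573060 to 118573967, had scores of 51.31 for ab21061 and 77.38 for sc8558. SETD2, a methyltransferase acting on transcribed genes, had an sc8558 peak of 89.7 just inside its far end, and the nearest ab21061 peak was 630 kb away. No peak lay within 50 kb of KMT2D, NSD1, DOT1L, KDM5A or KDM6B, as for 61.7% of all protein-coding genes. The distances of these 5 genes to a shared region were 913, 120, 910, 274 and 169 kb in that order.

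CREBBP and EP300 are paralogs that encode histone acetyltransferases. CREBBP had a shared region inside the gene on chromosome 16 from 3857094 to 3857876, with 144 for ab21061 and 202.03 for sc8558, 22.6 kb past the nearest start. EP300 had a single sc8558 peak of 73.9, 1.46 kb before its start on chromosome 22 from 41090820 to 41091447, and the nearest ab21061 peak was 61.4 kb from it. Whether the genes differ cannot be tested with 1 library per antibody.

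Both NCOR1 and SIN3A, scaffolds of histone deacetylase corepressor complexes, had a shared region near the start of the gene. Of all protein-coding genes with a listed start, 6.91% had one within 10 kb of it. In NCOR1, on chromosome 17 from 16212957 to 16213821, the region lay 2.15 kb past the start with 68.64 for ab21061 and 83.72 for sc8558. The nearest other protein-coding gene, PIGL, was 3.82 kb from that region. A further sc8558 peak of 71.08 lay in NCOR1, 13.1 kb from the nearest ab21061 peak, and another of 56.98 lay 30.5 kb past its end. In SIN3A the region, on chromosome 15 from 75448008 to 75448880, had scores of 105.99 for ab21061 and 141.56 for sc8558. It was 3.25 kb past the nearer of 2 SIN3A starts and 7.37 kb past the other. CHD4, the helicase of the nucleosome remodelling and deacetylase complex, had a broad shared region of 3084 bp lying 12.3 kb past its end in NOP2. It ran from 6556234 to 6559317 on chromosome 12 and scored 340.77 with ab21061 and 246.23 with sc8558. PHF6, a chromatin reader gene on chromosome X, had no peak within 50 kb.

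Of the 4 cohesin genes, 1 had a shared region within 10 kb, SMC3, beside 12.8% of all protein-coding genes. The region was inside the gene and 33.0 kb past its start on chromosome 10 from 110600405 to 110600987. It was weak, with 77.54 for ab21061 and 58.53 for sc8558. Stronger regions lay before SMC3, at 31.5 kb with 170.27 for ab21061 and 95.95 for sc8558, and at 34.7 kb with 95.44 for ab21061 and 152.47 for sc8558. Those regions were nearer to DUSP5, at 24.7 and 21.5 kb. SMC1A had a shared region 16.8 kb past its end on chromosome X from 53356838 to 53357922, with 174.13 for ab21061 and 87.67 for sc8558. STAG2 and RAD21, both mutated in myeloid leukemia, had no peak within 50 kb, like 61.7% of all protein-coding genes. The nearest shared regions of STAG2 and RAD21 were 304 and 1007 kb away.

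**Figure D2:**
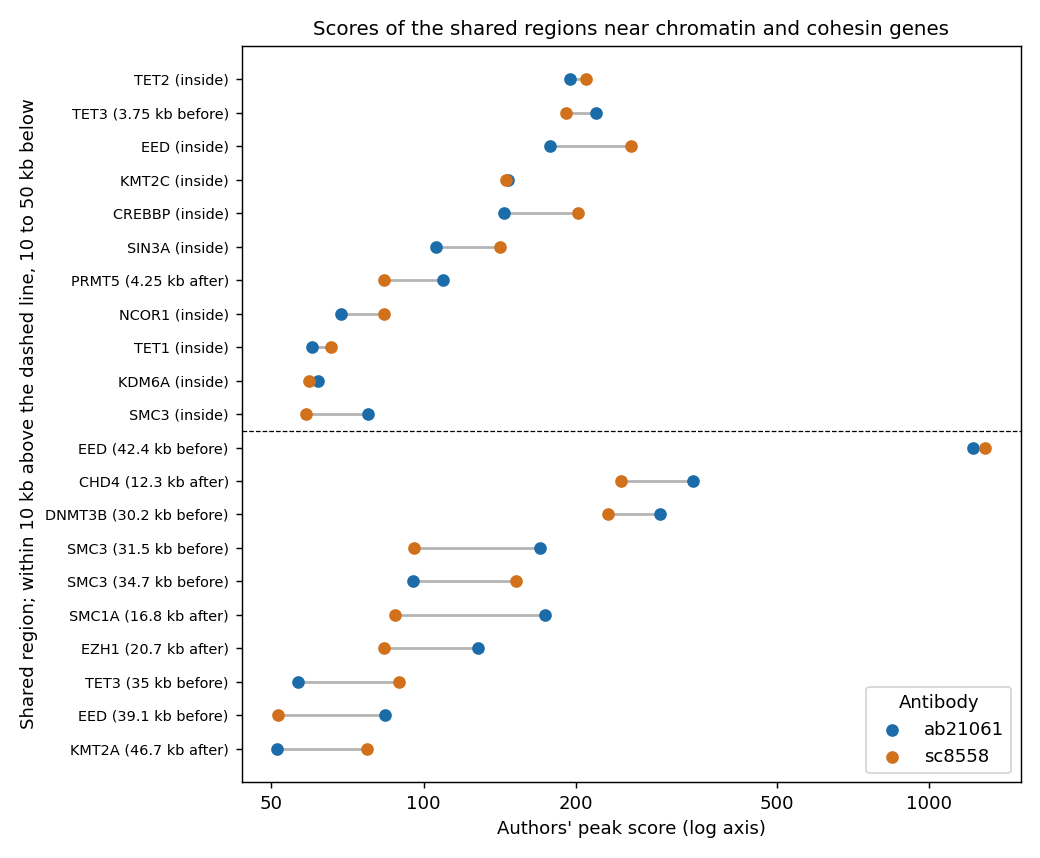
Authors' peak scores, on a log axis, of the 21 shared regions within 50 kb of the 38 genes, with ab21061 in blue and sc8558 in orange and a line joining the scores of a region. The 11 regions within 10 kb stand above the dashed line and lie between 58.53 and 256.98, whereas the region 42.4 kb before EED stands at 1219.31 and 1288.84 in the lower part.

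The regions within 10 kb had a median lower score of 105.99, against 87.98 over all 4853 shared regions. In 6 of the 11, TET2, TET3, EED, KMT2C, CREBBP and SIN3A, the lower score was 100 or more, and 41.9% of all shared regions reached that value. With 11 regions a difference in score was not tested. By gene, 6 of the 38 had a shared region of such a score in both lists within 10 kb (15.8%, 6.02 to 31.3), against 6.29% of all protein-coding genes. Within 50 kb it was 8 (21.1%, 9.55 to 37.3), against 12.6%. Both intervals include the value of all genes, and gene length is not adjusted for. Midpoints of the paired peaks were 7 to 285 bp apart, with a median of 70.0 bp, against 69.0 bp over all pairs. Of the 11 regions, 9 lay inside the member and 1 each before (TET3) and after it (PRMT5). All 10 regions between 10 and 50 kb lay outside by construction, and 5 of them were inside another protein-coding gene.

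The overlap of the antibodies around these genes was compared with that over the whole lists, and both intervals included the value of the whole list. Within 10 kb, 11 of 15 ab21061 peaks were overlapped by an sc8558 peak (73.3%, 44.9 to 92.2), against 63.7% of the whole list. For sc8558 it was 11 of 18 (61.1%, 35.7 to 82.7), against 65.0%. At scores from 50 to 100 and within 50 kb, 8 of 13 peaks of ab21061 and 11 of 23 of sc8558 had an overlap, where the whole lists gave 46.8% and 48.0%. Between 100 and 200 it was 9 of 10 and 4 of 4, against 87.0% and 90.4%. The unshared ab21061 peak at that level is the one of 101.39 in JARID2. Within 10 kb, 4 ab21061 and 7 sc8558 peaks were unshared, with median scores of 70.5 and 71.1, against 62.4 and 61.7 for the unshared peaks of the whole lists. Those of EZH2, KMT2A and EP300 lay within 2 kb of a RefSeq start of the gene, all with sc8558. A background was counted over 2698 unshared ab21061 and 2555 unshared sc8558 peaks, which are a part of the unshared peaks of the lists. Of them, 10.2% and 12.1% lay that close to a start of any gene. Those peaks were not limited to the surroundings of genes, so the shares are not directly comparable. With 4 and 7 peaks a difference between the antibodies is not shown.

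The 38 genes are longer than most, and longer genes held shared regions more often. Their median length was 79.4 kb, against 24.1 kb over all protein-coding genes, and the 11 with a shared region within 10 kb had a median of 134 kb, against 68.6 kb for the 27 without. Over all genes the share with a shared region within 10 kb was 8.11% under 50 kb, 17.0% from 50 to 100 kb, 26.4% from 100 to 200 kb and 30.9% over 200 kb. In the same classes these genes gave 3 of 13, 1 of 10, 5 of 12 and 2 of 3. Weighted to the lengths of the 38 genes, the share over all genes was 18.0% within 10 kb and 28.7% within 50 kb. Both values lie inside the intervals of the observed 28.9% and 42.1%, so a difference beyond length is not shown at this number of genes.

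**Figure D3:**
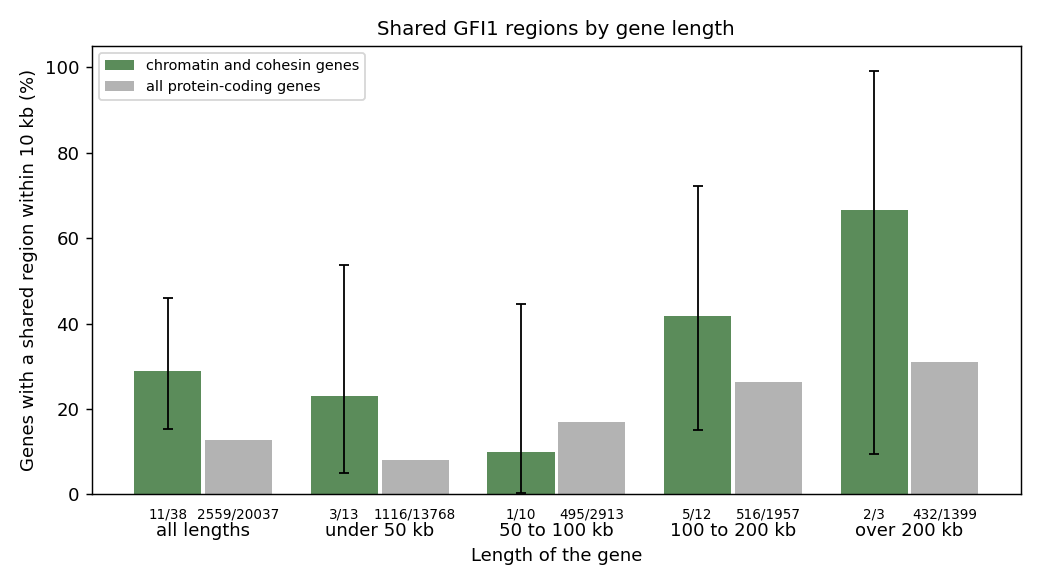
Percent of genes with a shared region within 10 kb, for the 38 chromatin and cohesin genes (green) and all protein-coding genes (grey), over all lengths and in 4 classes of gene length, with counts under the bars. Error bars are exact 95% intervals for the 38 genes, and within each length class they include the grey bar.

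Density and distance were compared next. The merged windows of 10 kb covered 4.45 Mb and held 11 shared regions. That is 2.47 per Mb, against 1.88 per Mb over the windows of all protein-coding genes. With so few regions a difference in density is not shown, and it was not tested. The median distance from a gene to its nearest shared region was 84.7 kb for these genes and 180 kb over all protein-coding genes. Among genes of 50 to 200 kb, it was 125 kb for the 22 of these genes and 149 kb for all 4870. Those with no peak of either antibody within 50 kb were 15 of 38 (39.5%, 24.0 to 56.6), against 61.7% of all protein-coding genes. These shares are not adjusted for gene length. Of the 38, 6 lie on chromosome X, where a shared region lay within 10 kb of 4.60% of protein-coding genes, against 13.2% on chromosomes 1 to 22. KDM6A was the single one of the 6, and 10 of the 32 on other chromosomes had one.

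**Figure D4:**
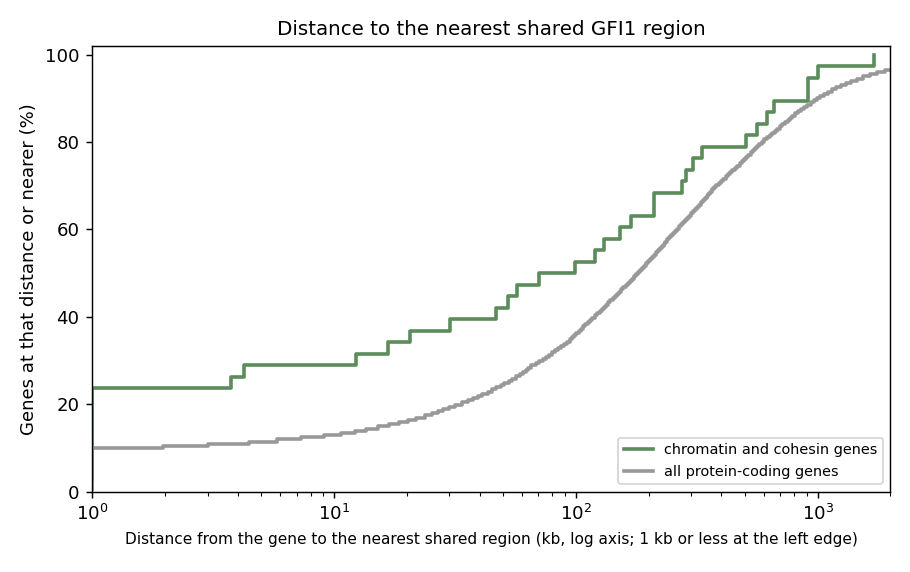
Cumulative percent of genes by distance in kb (log axis) to the nearest shared region, for the 38 chromatin and cohesin genes (green) and all protein-coding genes (grey). Gene length is not adjusted for, and the curve of the 38 genes lies to the left, with medians of 84.7 and 180 kb.

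The windows set which regions count. Nearest to the 10 kb limit, the farthest shared region inside was that of PRMT5 at 4.25 kb and the closest outside were those of CHD4 at 12.3 kb and SMC1A at 16.8 kb. At the 50 kb limit, that of KMT2A at 46.7 kb was inside, and those nearest to JARID2 at 52.4 kb and DNMT3A at 56.9 kb were outside.

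Partner genes of the same complexes and pathways were listed separately, 107 in all, also with earlier results of these data known. Of them, 19 had a shared region within 10 kb (17.8%, 11 to 26.3), against 12.8% of all protein-coding genes. Within 50 kb it was 35 (32.7%, 24.0 to 42.5), against 24.3%. Their median length was 50.9 kb. Weighted to their lengths, the shares over all genes were 15.9% and 26.7%, inside both intervals. Among 14 partners of DNA methylation 2 had one within 10 kb, and the higher scoring was UHRF1, which recruits DNMT1 to replicated DNA (158.77 with ab21061 and 201.4 with sc8558). Of 28 Polycomb partners 6 did, led by PCGF3 (245.67 with ab21061 and 309.89 with sc8558) and PHC2 (216.11 and 315.43), both components of the complex that ubiquitinates histone H2A.

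Among 24 partners of histone methylation 3 did, beside 12.8% of all protein-coding genes. The highest were AFF1 (175.62 with ab21061 and 149.82 with sc8558) and MLLT3 (181.59 and 120.81), both fusion partners of KMT2A in leukemia. Of 26 acetylation and corepressor partners 3 did, beside the same 12.8%, with MTA3 (286.59 with ab21061 and 227.31 with sc8558) and BRPF1 (148.57 and 113.04) highest. For the cohesin partners it was 5 of 15, beside 12.8% of all protein-coding genes and 17.0% of those of 50 to 100 kb. The median length of the cohesin partners was 71.4 kb, and a difference was not tested. Of the 19 partner genes with a shared region within 10 kb, 4 had more than 1. Among all protein-coding genes with a shared region in that window, 18.9% had more than 1. STAG1, the paralog of STAG2, had 2, and another cohesin partner had 3. The higher scoring of the 2 STAG1 regions had 322.87 with ab21061 and 273.33 with sc8558 on chromosome 3 from 136757787 to 136758769. CDCA5, which encodes sororin, a protector of cohesion, followed with 106.98 and 105.8.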

How the data were processed

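The authors deposited 1 peak list per antibody, made per library and not pooled, with a score for each peak. Per the submitters' processing notes, the tools were MACS 1.4.2 and Bowtie2 2.2.9 on build hg38. Their options, any control and any read filter were not given in the sources used here, and sequencing depth is unknown. Gene spans and starts came from RefSeq (GRCh38.p14). All 38 members were found, 35 of them with promoter sequences, and DOT1L, PHF6 and RAD21 without. Starts were available for 15843 protein-coding genes.

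Starts of peaks were made 1-based. Shared regions are groups of overlapping peaks of both lists (1 bp or more), given to a gene when the midpoints of both peaks lay in its window. Groups were set by the antibody label. The members and the partner lists were chosen with earlier results of these data known. Genes were named by rule: every member by its shared or unshared peaks, and 2 genes per partner list by the higher lower score, of which 1 is not reported here. EED was added to the promoters shown after its values were seen. The length classes were also chosen after seeing the data. No starts on chromosome 8 were used. The counting was run on simulated data, with peaks of both lists planted at the same position inside 200 genes in each of 3 draws. Recovery was fixed by that construction, so it checks the code only. Alternatives were a score of 100 or more, stricter overlap, other windows, single antibodies, the nearest gene and gene starts. Calculations ran in Python 3.11.15 with scipy 1.17.1, pandas 2.3.3 and numpy 2.4.6, and figures were drawn with matplotlib 3.10.9.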

Additional observations from a re-analysis of the deposited data

How the results depend on the processing

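With peaks scoring 100 or more alone, members with a shared region numbered 6 within 10 kb (all protein-coding genes 6.29%) and 8 within 50 kb (12.6%). There the density was 1.35 per Mb (0.819 over all genes), and 6 of 8 ab21061 peaks in member windows were overlapped (75%, 34.9 to 96.8, 70.3% of the list), as were 6 of 6 sc8558 peaks (100%, 54.1 to 100, 72.2% of the list). Fewer peaks enter by construction. Within 10 kb of a RefSeq start, an alternative chosen after seeing the data, 5 members had one (6.91% of genes with a start). The other settings kept the counts within 1.5 times and the shares inside their intervals. With stricter overlap and with any overlap of a peak with the window, the counts stayed at 11 and 16. The gene span alone gave 9. The nearest gene alone gave 10 within 10 kb and 11 within 50 kb, ab21061 alone 14 and 20, and sc8558 alone 16 and 21. No paired analysis was possible because each antibody had a single library, so no library was left out either. Depth is unknown, which limits what peaks of 1 antibody, or genes without peaks, can show.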
